A study of Mus musculus with 12 samples.

Results

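The 10 genes described here are Pecam1, Cdh5, Eng, Kdr, Tek, Myct1, Stab1, Stab2, Lyve1 and Angpt2, a set used as markers of the endothelial cells of the liver sinusoids. They were taken by gene symbol from a table of 16728 genes, and all 10 were present and were among the 12275 that passed the filter on low counts. RNA was sequenced from mouse primary hepatocyte cultures in 12 libraries, 3 in each of 4 groups. The series title and labels set out a comparison of Fxr-/- with wild-type cells under an iron load. The groups were Fxr-/- cells given FAC (KO FAC, libraries 4, 5 and 6), Fxr-/- cells given AC (KO AC, libraries 1, 2 and 3), wild-type cells given FAC (WT FAC, libraries 4, 5 and 6) and wild-type cells given AC (WT AC, libraries 1, 2 and 3). Each agent was used at 100 µM for 24 h, and the labels give both by abbreviation. All mice were of the C57BL/6 strain, and all cultures were grown in DMEM with 10% serum. Fxr is the bile acid receptor encoded by Nr1h4. The labels do not describe the deleted allele, the age of the mice, or whether libraries of a group came from separate animals, so the p-values measure the spread between these libraries, which may be technical.

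Sinusoidal endothelial cells line the liver capillaries with a thin, perforated wall and clear waste molecules from blood through scavenger receptors. Pecam1 and Cdh5 encode adhesion proteins of endothelial junctions, Eng, Kdr and Tek encode receptors for growth signals, and Stab1, Stab2 and Lyve1 encode receptors that bind or take up ligands such as hyaluronan. Angpt2 encodes a secreted ligand of the Tek receptor. Hepatocyte cultures can carry some of these cells from the digested liver, and Stab1 and Lyve1 are also made by some macrophages.

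The cultures were dominated by hepatocyte RNA. Alb, which encodes serum albumin, averaged 10671 FPKM (fragments scaled by transcript length and library size) in KO FAC, 9384 in KO AC, 14825 in WT FAC and 11205 in WT AC. The summed level of the 10 markers was 7.99 to 10.5 FPKM in KO FAC, 7.8 to 9.13 in KO AC, 16.2 to 17.1 in WT FAC and 10.3 to 11.8 in WT AC. Within this sum, Stab1, Stab2 and Lyve1 together had 3.51 to 4.41 FPKM in KO FAC and 4.56 to 5.87 in KO AC, against 2.89 to 3.48 in WT FAC and 4.25 to 4.44 in WT AC. The sum of these 3 genes was thus higher in KO libraries than in WT libraries of the same treatment. This came from Stab2, as Stab1 averaged 1.43 in KO FAC and 2.69 in KO AC, against 1.77 in WT FAC and 3.1 in WT AC. Stab1 and Lyve1 overlapped between genotypes in both treatments. Library totals ranged from 16464494 to 18335700 estimated reads. The first principal component, with 59.2% of the variance, separated KO from WT libraries. On the third component, with 7.42%, the KO libraries were spread out, with KO FAC 6 (27.7) and KO AC 1 (13.5) at one end, KO FAC 4 (-22.7), KO AC 2 (-14.6) and KO AC 3 (-9.63) at the other, and KO FAC 5 (3.26) between them. Counts without KO AC 1 and either KO FAC 4 or KO FAC 6 are given with the results. Nr1h4 itself had 1.72, 2.51 and 2.68 FPKM in KO FAC, 5.36, 3.84 and 4.22 in KO AC, 3.78, 3.79 and 4.24 in WT FAC, and 7.52, 8.68 and 7.3 in WT AC. It was lower in KO under FAC (log2 change -0.75 ± 0.16 SE, edgeR adjusted p = 0.00157) and under AC (-0.81 ± 0.14, edgeR adjusted p = 0.000535), but counts over the whole gene do not show whether a part of it is deleted.

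RefSeq promoter windows (250 bases before and 50 after a start site, GRCm38.p6) were at hand for Eng, Kdr, Tek, Myct1, Stab1 and Stab2. The windows of Eng, Myct1 and Stab2 are shown. Eng and Myct1 were called lower in KO cells and Stab2 higher, and for Myct1 a lower KO level was a condition of its test. Kdr and Tek were also called lower, and their windows are not shown. The Eng window is chr2:32646345-32646644 on the plus strand, that of Myct1 chr10:5593478-5593777 on the plus strand, and that of Stab2 chr10:87007893-87008192 on the minus strand. Capitals mark a GATA motif, AGATAA, and each window runs 5′ to 3′.
Eng: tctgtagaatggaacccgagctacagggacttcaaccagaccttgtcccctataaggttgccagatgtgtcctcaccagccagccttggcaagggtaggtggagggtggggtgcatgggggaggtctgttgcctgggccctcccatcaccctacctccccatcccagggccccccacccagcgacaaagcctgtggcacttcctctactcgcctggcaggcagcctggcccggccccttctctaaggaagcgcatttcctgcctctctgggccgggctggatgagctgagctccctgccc
Myct1: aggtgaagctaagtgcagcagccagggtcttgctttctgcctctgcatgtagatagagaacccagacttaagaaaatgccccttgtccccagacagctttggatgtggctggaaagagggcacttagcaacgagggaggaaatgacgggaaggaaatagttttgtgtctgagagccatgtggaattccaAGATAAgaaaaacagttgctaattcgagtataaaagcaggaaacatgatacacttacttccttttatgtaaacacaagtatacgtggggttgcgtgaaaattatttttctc
Stab2: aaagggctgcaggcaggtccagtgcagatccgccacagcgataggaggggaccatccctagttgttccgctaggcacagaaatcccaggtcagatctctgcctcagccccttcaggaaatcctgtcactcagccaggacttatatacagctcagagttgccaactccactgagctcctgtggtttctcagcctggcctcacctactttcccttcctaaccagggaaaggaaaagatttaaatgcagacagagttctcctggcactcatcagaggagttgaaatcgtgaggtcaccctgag

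Endothelial promoters are often bound by ETS and GATA factors. Searched on both strands, AGATAA stood in 2 of the 6 marker windows, in Myct1 at position -61 and in Tek at position 37 from the window's start site, and in 11.2% of 32851 windows in the table. An ETS form, CAGGAAG, stood in 1 of the 6 windows (Stab1, position -117) and in 13.3% of all windows. The other ETS form, CCGGAAG, was in 0 of the 6 and in 8.86% of all windows. TGANTCA, the AP-1 motif, was in 0 of the 6 and in 7.81% of all windows. The start sites of the Kdr, Tek, Stab1 and Stab2 windows lie inside the gene spans given here, so positions count from the table's start site and not from the end of the span. These matches describe the letters of the windows and say nothing of binding.

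Pecam1, Cdh5 and Eng, the general endothelial markers read in every library, were lower in KO than in WT cultures in both treatments, and Stab2 was higher. Under FAC, 7 of the 10 markers fell in KO and 1 rose, where 49.5% of all 12275 genes were called in either direction and 24.9% were called lower and 24.6% higher. Under AC, 6 fell and 1 rose, where 42.9% of all genes were called and 21.2% were called lower and 21.7% higher. KO and WT libraries did not overlap for 8 of the 10 markers under FAC, beside 59.1% of all genes, and for 7 under AC, beside 53.0%. The median log2 fold change of the markers was -1.66 under FAC and -1.23 under AC, beside -0.011 and -0.003 over all genes tested. Kdr, Tek and Myct1 had no KO library over the filter's 0.571 CPM (read counts scaled to library size) and passed it through WT libraries, so for them a lower KO level was a condition of being tested. The counts, overlaps and medians above include these genes. Of the 7 markers with at least 10 reads in every library, 4 fell and 1 rose under FAC, and 3 fell and 1 rose under AC. Without KO AC 1 and KO FAC 4, 8 of the 10 fell and 1 rose under FAC, and 5 fell and 2 rose under AC. Without KO AC 1 and KO FAC 6, 6 fell and 1 rose under FAC, and 5 fell and 2 rose under AC. In bulk RNA, fewer endothelial cells and less RNA per cell cannot be told apart.

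The junction genes Pecam1 and Cdh5 were among the clearest. Pecam1 (chromosome 11, 106654213 to 106715281) had 0.48, 0.34 and 0.41 FPKM in KO FAC and 0.5, 0.51 and 0.41 in KO AC, against 2.22, 2.36 and 2.68 in WT FAC and 1.37, 1.76 and 1.23 in WT AC. Every KO library lay below every WT library. Pecam1 was 5.42-fold lower in KO under FAC (log2 change -2.44 ± 0.21 SE, edgeR adjusted p = 5.72e-07) and 2.86-fold lower under AC (-1.52 ± 0.21, edgeR adjusted p = 7.08e-05). Cdh5 (chromosome 8, 104101613 to 104144504), which encodes VE-cadherin, had 0.29, 0.3 and 0.26 FPKM in KO FAC and 0.54, 0.47 and 0.32 in KO AC, against 2.15, 2.49 and 2.59 in WT FAC and 1.87, 1.84 and 1.36 in WT AC. Again no KO library reached a WT library. Cdh5 was 7.75-fold lower under FAC (-2.95 ± 0.21, edgeR adjusted p = 1.22e-07) and 3.53-fold lower under AC (-1.82 ± 0.20, edgeR adjusted p = 1.2e-05).

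**Figure D1:**
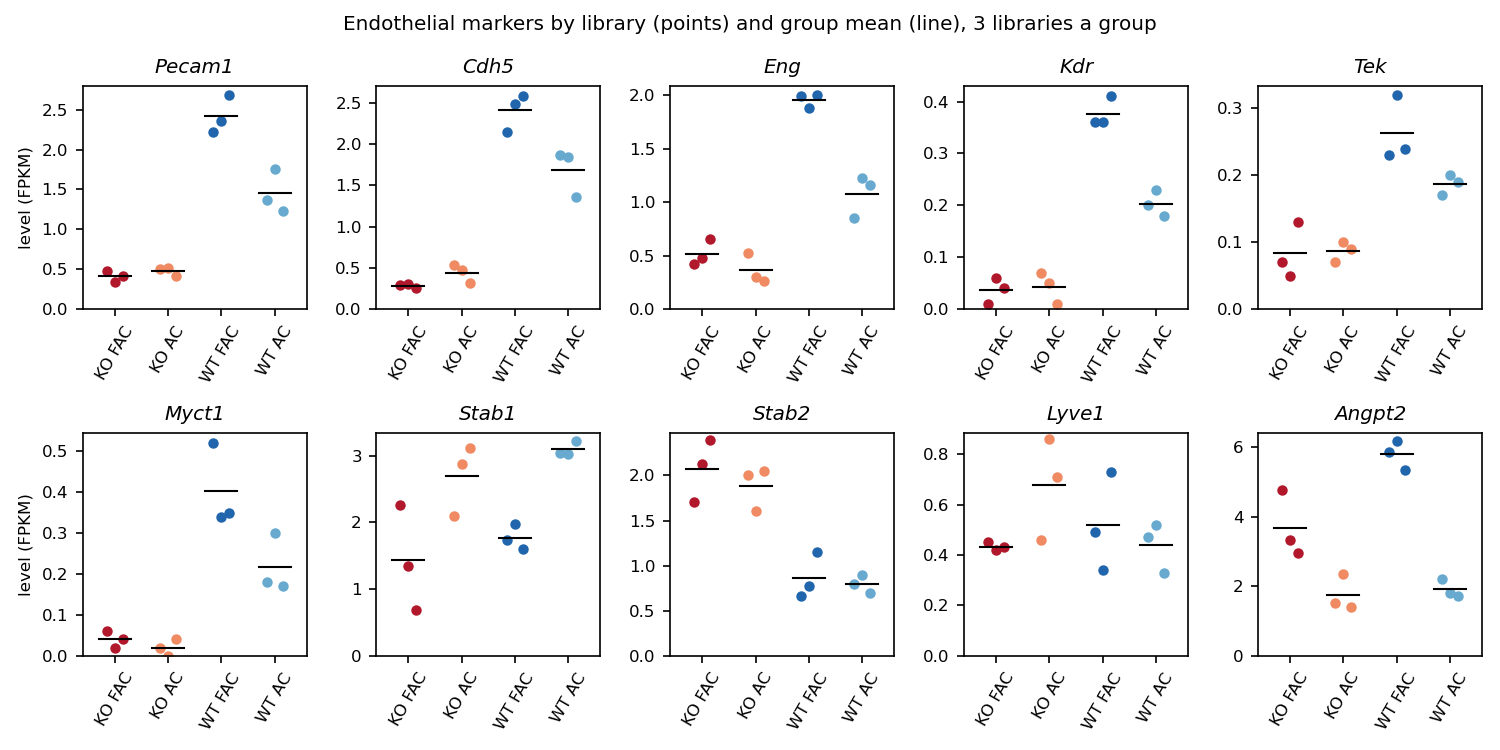
Level (FPKM, linear axes from 0) of each of the 10 markers in every library (points) with the group mean (line), for KO FAC, KO AC, WT FAC and WT AC, 3 libraries a group. Points of Pecam1, Cdh5, Eng, Kdr, Tek and Myct1 lie lower in KO than in WT, those of Stab2 lie higher in KO, and those of Angpt2 lie higher in FAC than in AC within each genotype.

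The receptor genes moved in the same direction. Eng (chromosome 2, 32646595 to 32682669), a co-receptor for TGF-beta and BMP ligands, had 0.42, 0.48 and 0.66 FPKM in KO FAC and 0.53, 0.3 and 0.26 in KO AC, against 1.99, 1.88 and 2.0 in WT FAC and 0.85, 1.23 and 1.16 in WT AC. It was 3.45-fold lower in KO under FAC (log2 change -1.79 ± 0.24 SE, edgeR adjusted p = 4.22e-05) and 2.78-fold lower under AC (-1.48 ± 0.26, edgeR adjusted p = 0.000576), with no overlap of libraries. Kdr (chromosome 5, 75932827 to 75979072) encodes the main VEGF receptor of endothelium and was read rarely, with 1, 5 and 4 reads in KO FAC and 6, 5 and 1 in KO AC, against 33, 34 and 37 in WT FAC and 18, 22 and 17 in WT AC. The counts did not overlap between genotypes. Its log2 fold change was -3.21 ± 0.43 under FAC (edgeR adjusted p = 4.07e-05) and -2.15 ± 0.45 under AC (edgeR adjusted p = 0.00177). Kdr passed the filter through WT libraries, so a lower KO level was a condition of its test.

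Tek (chromosome 4, 94739086 to 94874976), the angiopoietin receptor, had 5, 4 and 9 reads in KO FAC and 5, 8 and 7 in KO AC, against 16, 24 and 18 in WT FAC and 11, 16 and 15 in WT AC. Its log2 fold change was -1.54 ± 0.35 under FAC (edgeR adjusted p = 0.00239) and -0.99 ± 0.36 under AC (edgeR adjusted p = 0.0381). The call for Tek under AC was lost without any 1 of KO AC 1, KO AC 2, KO AC 3, WT AC 2 or WT AC 3 (edgeR adjusted p of 0.12, 0.0603, 0.07, 0.111 and 0.0968), with DESeq2 (adjusted p = 0.114) and with limma on log2(FPKM + 1) (adjusted p = 0.067). Myct1 (chromosome 10, 5593728 to 5606789), a gene first known as a target of the Myc protein and expressed in endothelium, was close to unread in KO. It had 3, 1 and 2 reads in KO FAC and 1, 0 and 2 in KO AC, against 24, 16 and 16 in WT FAC and 8, 14 and 8 in WT AC. Summed over a group and scaled by library totals, the KO to WT ratio was 0.107 under FAC (exact 95% interval 0.0378 to 0.248) and 0.0984 under AC (0.0192 to 0.316), intervals that cover counting error only. Myct1 was called lower in both treatments (edgeR adjusted p = 0.000299 under FAC and 0.00191 under AC). Tek and Myct1 both passed the filter through WT libraries, so a lower KO level was a condition of their tests.

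Of the scavenger receptors, 1 was higher in KO and the others were not called. Stab2 (chromosome 10, 86841194 to 87008038), which encodes a hyaluronan-clearing receptor, had 1.7, 2.13 and 2.39 FPKM in KO FAC and 2.01, 1.6 and 2.05 in KO AC, against 0.66, 0.77 and 1.15 in WT FAC and 0.79, 0.89 and 0.7 in WT AC. Every KO library was above every WT library. Stab2 was 2.64-fold higher in KO under FAC (log2 change 1.40 ± 0.19 SE, edgeR adjusted p = 4.77e-05) and 2.52-fold higher under AC (1.34 ± 0.19, edgeR adjusted p = 0.000109). It lies 2.45 Mb (2446196 bases) from Nr1h4 on chromosome 10, while Myct1 lies 83.8 Mb away on the same chromosome.

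Stab1 and Lyve1 were not called. Stab1 (chromosome 14, 31139017 to 31168651) had 2.26, 1.34 and 0.69 FPKM in KO FAC and 2.09, 2.88 and 3.11 in KO AC, against 1.74, 1.97 and 1.6 in WT FAC and 3.04, 3.03 and 3.22 in WT AC. The genotypes overlapped in both treatments, and the KO FAC libraries were spread over more than the whole WT FAC range. The log2 fold change of Stab1 was -0.18 under FAC (interval of ±1.96 SE, -0.82 to 0.46) and -0.11 under AC (-0.71 to 0.49). Without KO FAC 4, the highest of its group, Stab1 was called lower under FAC (edgeR adjusted p = 0.0326). Lyve1 (chromosome 7, 110850607 to 110862953), a hyaluronan receptor, had 0.45, 0.42 and 0.43 FPKM in KO FAC and 0.46, 0.86 and 0.71 in KO AC, against 0.49, 0.34 and 0.73 in WT FAC and 0.47, 0.52 and 0.33 in WT AC. Its log2 fold change was -0.13 under FAC (interval -0.78 to 0.52) and 0.70 under AC (0.08 to 1.33, edgeR adjusted p = 0.0919). Without KO AC 1, the lowest of its group, Lyve1 was called higher under AC (edgeR adjusted p = 0.0359).

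Angpt2 (chromosome 8, 18690263 to 18741562), the ligand, had 4.76, 3.32 and 2.94 FPKM in KO FAC and 1.51, 2.36 and 1.4 in KO AC, against 5.85, 6.18 and 5.35 in WT FAC and 2.21, 1.79 and 1.72 in WT AC. Under FAC the KO libraries were all below the WT libraries and Angpt2 was 1.44-fold lower (log2 change -0.53 ± 0.20 SE, edgeR adjusted p = 0.0415). That call was lost without any 1 of KO FAC 5, KO FAC 6, WT FAC 4, WT FAC 5 or WT FAC 6 (edgeR adjusted p of 0.125, 0.143, 0.0882, 0.114 and 0.0555). Under AC the KO and WT libraries overlapped (-0.02, interval -0.47 to 0.42).

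**Figure D2:**
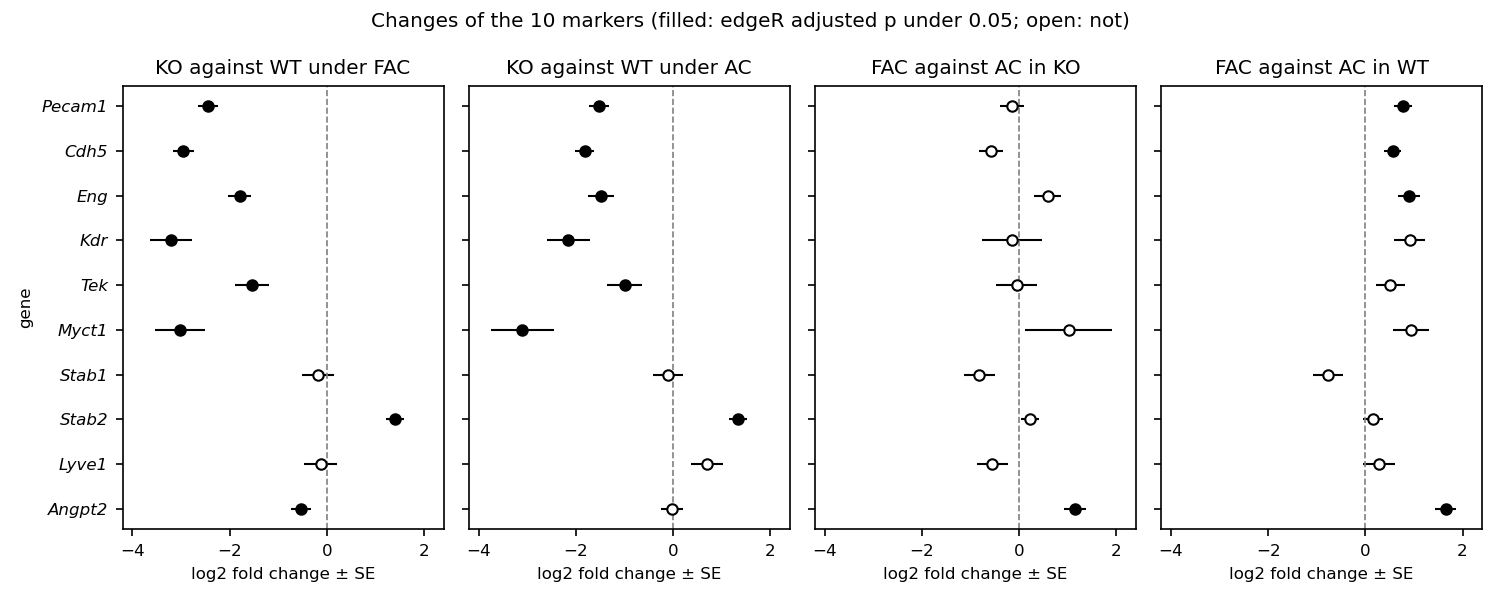
Log2 fold change of each marker (points) with its SE (bars) for KO against WT under FAC, KO against WT under AC, FAC against AC in KO and FAC against AC in WT, filled where the edgeR adjusted p was under 0.05. The filled points of the genotype comparisons lie left of 0 except Stab2, and Angpt2 is filled in both panels of FAC against AC.

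Levels per length had a different order in each group. In KO FAC it ran from Angpt2 (3.67 ± 0.96 FPKM, SD, n = 3) over Stab2 (2.07 ± 0.348) and Stab1 (1.43 ± 0.789) to Eng, Lyve1, Pecam1, Cdh5, Tek, Myct1 and Kdr. In KO AC the order was Stab1, Stab2, Angpt2, Lyve1, Pecam1, Cdh5, Eng, Tek, Kdr and Myct1. In WT FAC it ran from Angpt2 (5.79 ± 0.418) over Pecam1 (2.42 ± 0.236), Cdh5 (2.41 ± 0.231), Eng (1.96 ± 0.0666) and Stab1 (1.77 ± 0.187) to Stab2, Lyve1, Myct1, Kdr and Tek. In WT AC the order was Stab1, Angpt2, Cdh5, Pecam1, Eng, Stab2, Lyve1, Myct1, Kdr and Tek. Pecam1 and Cdh5 were neighbours in each group and overlapped in KO AC, WT FAC and WT AC but not in KO FAC. Stab2 and Stab1 overlapped in KO FAC and not in KO AC.

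Ratios within a library do not depend on its total. Stab2 to Pecam1 was 3.14 to 6.26 over the KO libraries, against 0.297 to 0.577 over the WT libraries. Cdh5 to Pecam1 was 0.604 to 1.08 in KO, against 0.966 to 1.36 in WT, and these ranges overlapped. Angpt2 to Pecam1 was 7.17 to 9.92 in KO FAC and 3.02 to 4.63 in KO AC, against 2.0 to 2.64 in WT FAC and 1.02 to 1.61 in WT AC. A ratio shows unequal change and not which of its genes changed.

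**Figure D3:**
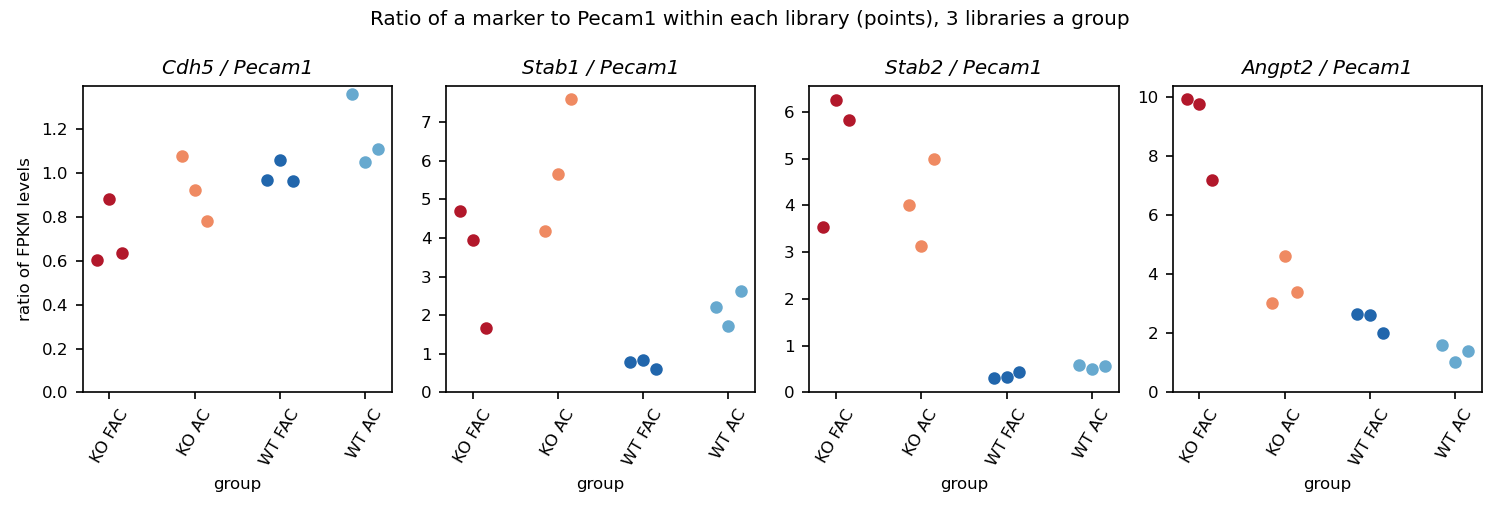
Ratio of the FPKM level of Cdh5, Stab1, Stab2 or Angpt2 to that of Pecam1 within each library (points; linear axes from 0) for KO FAC, KO AC, WT FAC and WT AC, 3 libraries a group. The 6 KO points of Stab2 to Pecam1, from 3.14 to 6.26, lie above all WT points.

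With FAC, 1 marker was higher in KO cells and 4 were higher in WT cells. In KO the called gene was Angpt2, where 29.6% of all genes were called and 15.0% were called higher and 14.6% lower. In WT the called genes were Pecam1, Cdh5, Eng and Angpt2, where 17.2% of all genes were called and 8.70% were called higher and 8.55% lower. The 2 treatments had no overlap of libraries for 1 of the 10 markers in KO, beside 38.8% of all genes, and for 8 of 10 in WT, beside 43.2%. The 8 include Myct1, which passed the filter through WT FAC libraries. The median log2 fold change of the markers was -0.10 in KO and 0.67 in WT, beside -0.002 over all genes in either genotype.

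The scale of the values moved these backgrounds. In TPM (transcript abundance scaled to a fixed total), the median log2 change of all genes was -0.151 in KO and -0.101 in WT for FAC against AC, and -0.17 under FAC and -0.109 under AC for KO against WT. The share of called genes that were higher was 50.6% in KO and 50.4% in WT for FAC against AC by edgeR, and 18.5% and 22.9% in TPM. For KO against WT it was 49.7% under FAC and 50.7% under AC, and 28.2% and 32.2% in TPM. No called marker changed direction in TPM or under the other alternatives that were run.

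Angpt2 was the marker called in both genotypes. It was 2.22-fold higher with FAC in KO (log2 change 1.15 ± 0.22 SE, edgeR adjusted p = 0.00179) and 3.15-fold higher in WT (1.65 ± 0.21, edgeR adjusted p = 0.000201). All FAC libraries exceeded all AC libraries of their genotype. The effect in KO minus the effect in WT was -0.50 (interval -1.09 to 0.09, edgeR adjusted p = 0.388, and 0.037 without KO AC 1 and KO FAC 4).

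Pecam1 in KO had a log2 fold change with FAC of -0.15 (interval -0.62 to 0.32, edgeR adjusted p = 0.678), while in WT it was 1.71-fold higher (0.78 ± 0.18 SE, edgeR adjusted p = 0.0087). Cdh5 in KO had a change of -0.58 (interval -1.07 to -0.08, edgeR adjusted p = 0.0995, and 0.039 without KO AC 3). In WT, Cdh5 was 1.47-fold higher (0.56 ± 0.17, edgeR adjusted p = 0.0387). That call was lost without any 1 of the 6 WT libraries, with edgeR adjusted p from 0.0555 without WT AC 2 to 0.166 without WT AC 3. Eng in KO had a change of 0.59 (interval 0.04 to 1.15, edgeR adjusted p = 0.131, and 0.0198 without KO AC 1). In WT it was 1.87-fold higher (0.90 ± 0.22, edgeR adjusted p = 0.0125, and 0.0562 without WT AC 1).

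The remaining markers were not called for FAC in either genotype. Stab1 had a negative value in both, -0.82 ± 0.32 SE on the log2 scale in KO (edgeR adjusted p = 0.0781) and -0.76 ± 0.31 in WT (edgeR adjusted p = 0.127). It was called lower in KO without KO FAC 4 (edgeR adjusted p = 0.00181) and with DESeq2 (adjusted p = 0.021), and in WT when the WT groups were fitted alone (edgeR adjusted p = 0.000126). Kdr in WT had a log2 fold change of 0.91 ± 0.31 (edgeR adjusted p = 0.0622, and 0.0122 when the WT groups were fitted alone). Myct1 had 0.94 ± 0.38 in WT (edgeR adjusted p = 0.103) and Tek 0.51 ± 0.30 (edgeR adjusted p = 0.271). In these 3 genes all WT FAC libraries were above all WT AC libraries, while in KO the intervals were -1.35 to 1.05 for Kdr, -0.73 to 2.76 for Myct1 and -0.86 to 0.77 for Tek. Myct1 was over the filter in 3 WT FAC libraries, 1 WT AC library and 0 KO libraries. A high WT FAC level was thus a condition of its test. Stab2 had 0.22 in KO (interval -0.12 to 0.57) and 0.16 in WT (-0.23 to 0.55), and Lyve1 had -0.55 (-1.18 to 0.07) in KO and 0.28 (-0.37 to 0.93) in WT.

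For the difference of the FAC effects between genotypes, 0 of the 10 markers were called by edgeR, 2 had an unadjusted p under 0.05, DESeq2 called 1 and limma on log2(FPKM + 1) called 2. Over all genes 3.15% were called, 1.87% with a positive difference and 1.28% with a negative one. The 2 markers were Cdh5 (-1.14 ± 0.30 SE, edgeR adjusted p = 0.0594, and 0.0415 without KO AC 3) and Pecam1 (-0.92 ± 0.30, edgeR adjusted p = 0.111). DESeq2 called Cdh5 (adjusted p = 0.0371). The comparisons share libraries (the AC and FAC groups of each genotype enter the genotype and the treatment contrasts), so their values for a gene are not independent of each other.

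The wider endothelial list held genes in both directions. Of 47 listed genes 33 were tested, and in KO against WT 18 were lower and 7 higher under FAC, and 17 were lower and 3 higher under AC. Of the 33, 17 had fewer than 3 KO libraries over the filter and were tested through WT libraries, so a lower KO level was a condition of their test, and they held 16 of the 18 lower genes under FAC and 13 of the 17 under AC. In the same way, 2 of the 33 had fewer than 3 WT libraries over the filter. Acvrl1 is counted on both sides, so a lower KO level was not a condition of its test, and it was not called. Among the remaining 15, 6 were higher and 2 lower under FAC, and 3 were higher and 4 lower under AC, beside 24.6% and 24.9% of all genes under FAC and 21.7% and 21.2% under AC. The list summed to 78.8 to 85.9 FPKM in KO FAC and 69.6 to 82.5 in KO AC, against 65.9 to 66.3 in WT FAC and 65.8 to 70.1 in WT AC. Mmrn2, an endothelial matrix protein gene, had 7, 3 and 3 reads in KO FAC and 2, 0 and 1 in KO AC, against 22, 22 and 23 in WT FAC and 9, 16 and 16 in WT AC. Sox18, an endothelial transcription factor gene, had 2, 0 and 0 reads in KO FAC and 1, 1 and 1 in KO AC, against 11, 12 and 17 in WT FAC and 9, 11 and 9 in WT AC. Ptprb, a phosphatase that acts on the Tek receptor, had 1, 0 and 2 reads in KO FAC and 2, 1 and 0 in KO AC, against 18, 20 and 14 in WT FAC and 8, 5 and 7 in WT AC. These 3 genes are among those tested through WT libraries. Egfl7, an endothelial secreted factor gene named here after its values were seen, was called higher in KO with log2 fold changes of 1.92 under FAC and 1.52 under AC. It averaged 28.0 FPKM in KO FAC and 20.0 in KO AC, against 7.71 in WT FAC and 7.17 in WT AC. On group means, the higher KO sum of the list came from Egfl7 and does not describe the other genes. For FAC against AC, 4 of the 33 were higher and 3 lower in KO, and 4 higher and 4 lower in WT. Over all genes 15.0% were higher and 14.6% lower in KO, and 8.70% and 8.55% in WT. Tm4sf1 was higher with FAC in both genotypes (log2 change 1.01 ± 0.17 SE in KO and 0.82 ± 0.16 in WT, edgeR adjusted p = 0.00083 and 0.00402). Flt4 was lower in both (-0.65 ± 0.11 in KO and -0.62 ± 0.11 in WT, edgeR adjusted p = 0.000675 and 0.00193). Adgrl4 (1.22 ± 0.34 SE, edgeR adjusted p = 0.0247) and Cd34 (1.16 ± 0.33, edgeR adjusted p = 0.0255), both endothelial surface protein genes, were higher with FAC in WT. Cd34 had 15, 16 and 15 reads in WT FAC and 9, 5 and 7 in WT AC, with 8, 7 and 5 in KO FAC and 4, 3 and 4 in KO AC. It reached the filter through WT FAC libraries, so a high WT FAC level was a condition of its test.

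Other sinusoidal genes were mixed. Of 20 listed, 13 were tested, and 5 were higher and 4 lower in KO under FAC, 4 higher and 4 lower under AC. Of the 13, 3 (Mrc1, Maf and F8) had fewer than 3 KO libraries over the filter. F8 also had fewer than 3 WT libraries over it, so only Mrc1 and Maf were tested through WT libraries alone. Over all genes 24.6% were higher and 24.9% lower under FAC, and 21.7% and 21.2% under AC, so these counts describe the list only. The list summed to 32.1 to 33.4 FPKM in KO FAC and 36.1 to 38.2 in KO AC, against 29.8 to 32.6 in WT FAC and 28.4 to 29.3 in WT AC. Mrc1, the mannose receptor gene, had 1, 0 and 1 reads in KO FAC and 0, 1 and 1 in KO AC, against 17, 15 and 17 in WT FAC and 17, 9 and 8 in WT AC. Fcgr2b, an Fc receptor gene, was 3.55-fold lower in KO under FAC (log2 change -1.83 ± 0.27 SE, edgeR adjusted p = 0.0001). Cd36, a fatty acid and lipoprotein receptor gene that hepatocytes can also express, had 4.77, 5.31 and 6.21 FPKM in KO FAC and 10.9, 7.15 and 8.96 in KO AC, against 0.33, 0.37 and 0.48 in WT FAC and 0.57, 1.03 and 0.42 in WT AC. On group means, the higher KO sum of this list came mostly from Cd36. Dnase1l3, a secreted DNase gene, was 3.32-fold higher in KO under AC (1.73 ± 0.37, edgeR adjusted p = 0.003). With FAC, Oit3 rose and Ntn4 fell in WT (log2 fold changes of 0.46 and -1.0).

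Markers of other cell types moved with the genotype as well. Their counts are read beside all genes, of which 24.6% were higher and 24.9% lower in KO under FAC, and 21.7% and 21.2% under AC. Of 8 tested of 20 listed Kupffer and macrophage genes, 4 were lower and 1 higher in KO under FAC, and 6 were lower and 1 higher under AC. All but Cd68 of the 8 were tested through WT libraries, so a lower KO level was a condition of their test. Their summed level was 628 to 715 FPKM in KO FAC and 495 to 611 in KO AC, against 607 to 653 in WT FAC and 345 to 408 in WT AC. Cd68, the gene that was higher, made up most of that sum, with means of 679 in KO FAC, 564 in KO AC, 618 in WT FAC and 367 in WT AC. Lyz2, a macrophage lysozyme gene, had 23 reads over KO FAC and 22 over KO AC, against 142 over WT FAC and 194 over WT AC. Clec4f, a defining Kupffer cell gene, had 0 reads over the KO libraries, against 1 read over WT FAC and 3 over WT AC. Of 8 tested of 16 listed stellate and fibroblast genes, 5 were lower and 0 higher under FAC, and 6 were lower and 0 higher under AC, and all the lower ones were tested through WT libraries. Their summed level was 1.54 to 2.06 FPKM in KO FAC and 1.67 to 2.35 in KO AC, against 3.8 to 4.06 in WT FAC and 5.32 to 6.33 in WT AC. The other 2 tested, Tagln and Reln, were not called in either treatment. Tagln had a log2 fold change of 0.39 under FAC and -0.58 under AC, and Reln -0.37 in each. Lum, Hand2 and Hgf had 0 reads over the KO libraries, against 0, 3 and 3 reads over WT FAC and 1, 2 and 3 over WT AC. Such counts are too low to compare the genotypes. Of the 8 hepatocyte genes, 6 were higher and 1 lower in KO in each treatment, with medians of 1.75 under FAC and 1.64 under AC. Of the 5 tested cholangiocyte genes, 2 were higher and 1 lower under FAC, and 0 higher and 1 lower under AC. The cholangiocyte list summed to 90.2 to 109 FPKM in KO FAC and 62.7 to 72.2 in KO AC, against 264 to 303 in WT FAC and 317 to 323 in WT AC. Spp1 made up most of that sum, with means of 59.8 in KO FAC, 40.3 in KO AC, 268 in WT FAC and 296 in WT AC. Krt19 and Sox9 were the genes higher in KO under FAC (3.0-fold and 1.96-fold, edgeR adjusted p = 8.68e-05 and 0.00144). The lymphocyte list reached at most 0.17 FPKM in any library, and none of its genes was tested. The part of these cell types in the endothelial result was not tested.

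**Figure D4:**
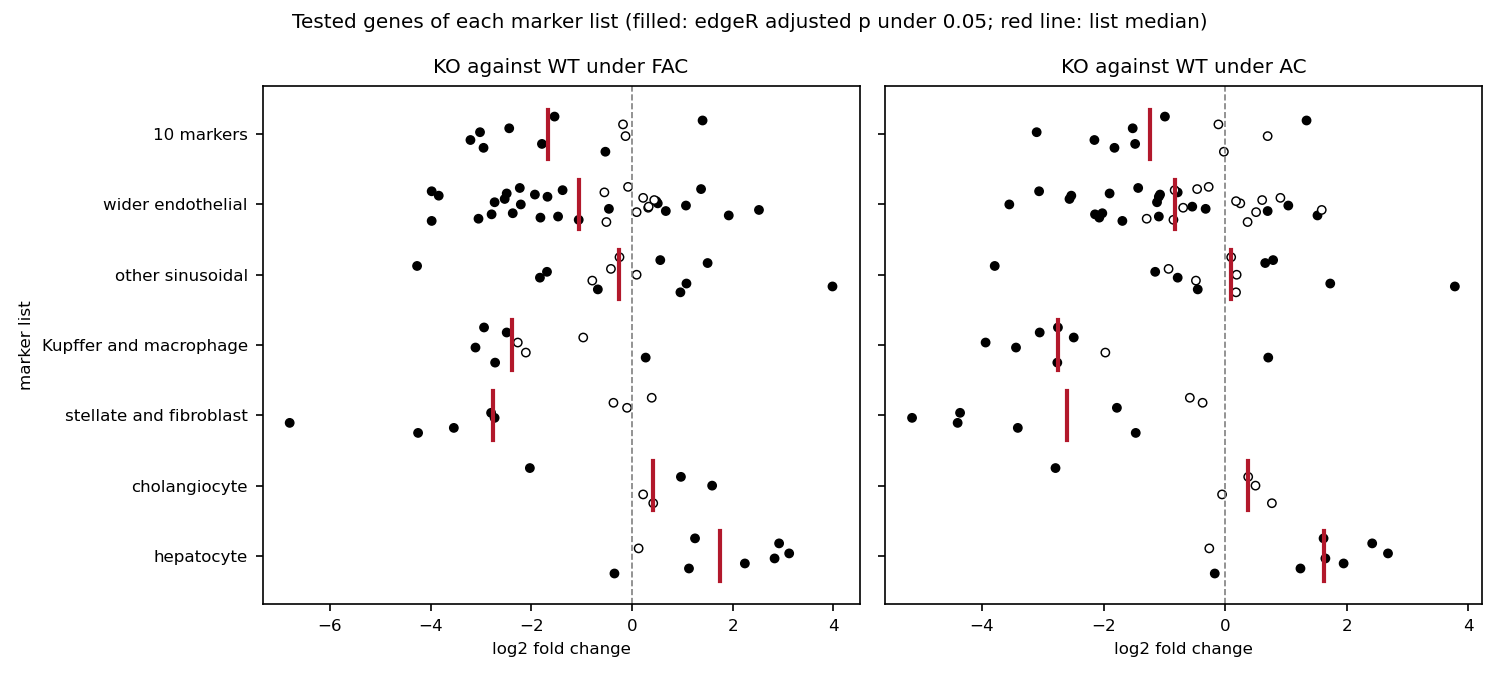
Log2 fold change of KO against WT under FAC and under AC for every tested gene (points) of the 10 markers and of 6 other marker lists, filled where the edgeR adjusted p was under 0.05, with the list median as a red line. Medians of the 10 markers and of the wider endothelial, macrophage and stellate lists lie below 0, where many genes were tested through WT libraries, and that of the hepatocyte list lies above 0.

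The counts of the ligand and partner lists are read against all genes, of which 24.6% were higher and 24.9% lower in KO under FAC, 21.7% and 21.2% under AC, 15.0% and 14.6% with FAC in KO, and 8.70% and 8.55% with FAC in WT. With 5 to 12 tested genes each, these counts describe the lists and are not a result about them. Among VEGF ligands, which act through Kdr and its relatives, 2 of 5 tested were higher in KO and 0 lower in each treatment, and 0 changed with FAC. Pgf, placenta growth factor, had 29.4, 20.7 and 21.9 FPKM in KO FAC and 20.9, 35.5 and 32.5 in KO AC, against 3.24, 2.8 and 2.85 in WT FAC and 1.61, 2.14 and 3.18 in WT AC. No KO library came near a WT library (log2 change 3.17 ± 0.24 SE under FAC and 3.83 ± 0.25 under AC, edgeR adjusted p = 5.42e-07 and 1.62e-07). Vegfa, the main Kdr ligand, was 1.55-fold higher in KO under FAC (edgeR adjusted p = 0.0447) and 1.73-fold higher under AC (edgeR adjusted p = 0.0208).

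In the angiopoietin list 7 of 10 genes were tested, with 3 higher and 2 lower in KO under FAC and 2 higher and 2 lower under AC. Tie1, a receptor partner of Tek, was 4.7-fold lower under FAC and 2.7-fold lower under AC (edgeR adjusted p = 0.000137 and 0.00435), and with Ptprb it was tested through WT libraries. Angpt1, the other main Tek ligand, had 3 reads over KO FAC and 1 over KO AC, against 0 over both WT groups, and was not tested. With FAC, 2 of the 7 were higher and 0 lower in KO, and 2 higher and 1 lower in WT.

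Of the 15 listed genes of Eng signalling, 12 were tested. With FAC, 0 rose and 5 fell in KO, and 0 rose and 4 fell in WT. Tgfb2, a TGF-beta ligand gene, had 1.83, 1.8 and 1.15 FPKM in KO FAC, 3.68, 4.04 and 3.97 in KO AC, 0.55, 0.49 and 0.62 in WT FAC and 1.88, 2.25 and 1.86 in WT AC. FAC libraries were below AC libraries in both genotypes, and KO libraries above WT libraries in both treatments. The log2 fold change of Tgfb2 with FAC was -1.20 ± 0.17 SE in KO and -1.76 ± 0.19 in WT (edgeR adjusted p = 0.000226 and 5.83e-05). Smad6, an inhibitor of BMP signals, fell 2.58-fold in KO and 2.39-fold in WT (edgeR adjusted p = 0.00266 and 0.00514). In KO against WT, 2 were higher and 2 lower under FAC, and 1 higher and 2 lower under AC. Gdf2 and Bmp10, which encode Eng ligands, had at most 3 reads over any group.

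Of 14 listed genes of hyaluronan and scavenger ligands, 9 were tested, with 3 higher and 2 lower in KO under FAC and 4 higher and 1 lower under AC. Sparc, a matrix protein that STAB1 binds in human cells, had 0.4, 0.32 and 0.51 FPKM in KO FAC and 0.34, 0.37 and 0.42 in KO AC, against 4.51, 4.8 and 5.36 in WT FAC and 2.34, 3.07 and 2.3 in WT AC. It was 10.8-fold lower in KO under FAC and 6.4-fold lower under AC (edgeR adjusted p = 9.86e-09 and 2.87e-07), and 1.96-fold higher with FAC in WT (edgeR adjusted p = 0.000944). Colec12, a scavenger receptor gene, was 1.49-fold higher with FAC in KO and 2.01-fold higher in WT (edgeR adjusted p = 0.0215 and 0.00167). With FAC, 2 of the 9 were higher and 0 lower in each genotype.

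The genes most like the mean of the standardised markers over the 12 libraries, among 10370 genes with a mean FPKM of at least 1, were Mfap1a (Pearson r = 0.975), Ppt1 (0.965), Snx25 (0.958), Mup21 (0.958), Erh (0.957) and Hpx (0.955). Mup21 belongs to a family of near-identical genes whose reads can be split between copies. Hpx, the plasma haem-binding protein hemopexin, averaged 4516 FPKM in KO FAC and 5070 in KO AC, against 8703 in WT FAC and 7499 in WT AC. The mean does not stand for all 10 markers. Its Pearson r was -0.79 with Stab2, -0.06 with Lyve1, 0.06 with Stab1 and 0.49 with Angpt2, against 0.88 (Eng) to 0.98 (Pecam1) for the rest. It includes Kdr, Tek and Myct1, which passed the filter through WT libraries. The 12 points fall into KO and WT libraries and into FAC and AC libraries, so r mainly reflects group means and is given as a description. With group means subtracted, Pecam1 and Cdh5 had r = 0.6 over the 12 libraries, Pecam1 and Eng 0.23, and Cdh5 and Eng 0.3. Among the markers with at least 10 reads in every library, r of the pairs ran from -0.63 (Eng and Stab1) to 0.63 (Stab1 and Angpt2). Pairs that include the rarely read Kdr, Tek or Myct1 are not described.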

How the data were processed

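Per the labels' protocols, the 12 libraries were made with the standard method for BGISEQ-500 sequencing of total RNA. RSEM with mm10 and GRCm38.p6 is named in the submitters' processing notes, and the aligner, annotation release, strand setting and filters are not given in the sources used here. Unnormalized estimated counts of each gene were deposited (7.89% are not whole numbers), as were FPKM values, scaled by transcript length and library total, and TPM values. Because reads from a gene and an antisense partner cannot be told apart without strand, and because RSEM shares reads among near-identical genes, such genes are uncertain.

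Estimated counts were rounded, scaled by TMM (factors 0.92 to 1.07) and put to edgeR 4.0.16 under R 4.3.3 (robust quasi-likelihood fit, trended dispersion, 4 groups, no block). filterByExpr with a minimum count of 10, here 0.571 CPM in at least 3 libraries, kept 12275 genes and removed 4453. The 5 contrasts were adjusted by Benjamini-Hochberg over all tested genes with calls at an adjusted p under 0.05. The SE was taken as the size of the log2 fold change over the root of its F statistic, and intervals are ±1.96 SE. The biological coefficient of variation was 10.8%. An exact permutation test of 3 against 3 libraries cannot go below p = 0.1 and was not used. Levels are the deposited FPKM values. Count ratios carry exact 95% intervals.

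The markers and gene lists were chosen with earlier results of these data known. The text names all 10 markers, Nr1h4, up to 4 called genes of largest change per list and comparison, the 6 genes most like the markers, and up to 3 defining markers of each other cell type, of which some are left out; Egfl7, Clec4f, Lum, Hand2, Hgf, Angpt1, Gdf2 and Bmp10 were named outside this rule after their values were seen. Alternatives were limma 3.58.1 on log2(FPKM + 1), log2(FPKM + 0.1) and log2(TPM + 1), DESeq2 1.42.0, other scaling, filters and dispersion, the compared groups alone, a replicate block, and each library left out. Leaving out KO AC 1 with KO FAC 4 or with KO FAC 6, and keeping only markers with at least 10 reads in every library, were added after the data were seen. A gene was said to be tested through WT libraries where fewer than 3 KO libraries were over the filter. A gene with fewer than 3 libraries over it in each genotype is counted on both sides. A further gene is counted in its list but not reported here. The edgeR script was tested on simulated data. Figures were drawn with matplotlib 3.10.9.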

Additional observations from a re-analysis of the deposited data

Results flagged for a closer look

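The effect of FAC differed between genotypes in 3 genes named beside the markers, by the test of the difference itself (KO minus WT, edgeR adjusted p over all genes). Klf4, an endothelial and epithelial transcription factor gene of the wider endothelial list, had a difference of 0.87 on the log2 scale (edgeR adjusted p = 0.0451). Angptl8, a lipase regulator of the angiopoietin-like genes, had a difference of 1.0 (edgeR adjusted p = 0.0422), and it was lower with FAC in WT (-0.59 ± 0.17 SE). Spp1, osteopontin, of the cholangiocyte list, had a difference of 0.76 (edgeR adjusted p = 0.00944), with a change with FAC of 0.66 ± 0.09 in KO and -0.10 ± 0.09 in WT. None of the 10 markers was among them, although 2 had an unadjusted p under 0.05. Groups of 3 libraries are too small for a test of single outlying libraries.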

How the results depend on the processing

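Of 50 results for single markers (10 genes in 5 comparisons), 35 kept their call under every alternative. Over 881 alternative values 824 kept the call, 27 lost a call, 30 gained one and 0 called values changed sign. Values that were not called could change sign, as in 9 of 22 alternatives for Myct1 in the difference of the FAC effects. For KO against WT under FAC, 8 markers were called, with 4 at a mean FPKM of at least 1 and 5 among well-read markers. Under AC, 7 were called, with 3 and 4 under these filters, which test fewer markers. For FAC in KO, 1 marker was called, with 2 under limma on log2(FPKM + 1), log2(FPKM + 0.1) and log2(TPM + 1), DESeq2 and without KO AC 1 and KO FAC 6, 3 without KO AC 1 and KO FAC 4, and 1 to 2 with each library left out. For FAC in WT, 4 were called, with 6 under limma on log2(FPKM + 1) and log2(TPM + 1) and with the WT groups alone, 5 with DESeq2 and with no dispersion trend or robust fit, 3 under log2(FPKM + 0.1) and at a mean FPKM of at least 1, and 2 to 3 with each library left out. For the difference, 0 were called, with 2 under limma on log2(FPKM + 1), 1 under log2(TPM + 1), DESeq2 and without KO AC 1 and KO FAC 4, and 0 to 1 with each library left out. Over all genes, FAC in KO called 3633, with 2199 when these groups were fitted alone and 2371 to 4095 with each library left out. FAC in WT called 2117, with 3345 alone and 1250 to 1656 with each library left out. The difference called 387 genes, with 584 under limma on log2(FPKM + 1), 678 with DESeq2, 1918 without KO AC 1 and KO FAC 4, and 95 to 643 with each library left out. Apart from the filters, the cause was not tested.

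The replicate numbers that KO and WT share showed no clear pairing of the libraries. Deviations of same-numbered libraries from their group means had r from -0.142 to 0.208, and not every library was most like its own number. With so few libraries a group, such values cannot show that the libraries were unpaired. A pairing of AC with FAC libraries within a genotype was not tested. With the number as a replicate block, the difference called 84 genes and 0 markers, KO against WT under FAC 5688 genes and 8 markers, and under AC 4670 genes and 6 markers.

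On the log2(FPKM + 1) scale the changes of these low genes are understated. Depth limits Kdr, Tek and Myct1 most, with 0 to 37 reads in any library.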
